A study of Mus musculus with 12 samples.

Results

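The 10 genes described here are immediate early genes of the mouse, followed across all 4 groups of a liver progenitor cell line: Egr1, Egr2, Egr3, Nr4a1, Ier2, Ier3, Srf, Dusp1, Zfp36 and Btg2. They were chosen by name, with earlier results of these data known. They are 10 of 54146 gene identifiers in the files, and all 10 were among the 14283 genes with enough counts to be tested. BMEL cells are bipotential mouse embryonic liver cells, able to form hepatocytes or bile duct cells, and this line was isolated from a CDK8F/F mouse (F/F is the usual mark of floxed alleles). RNA was sequenced from 12 libraries, 3 in each group. The untransformed group had the wild type genotype and no transformation. The RasG12V group was wild type and carried H-RasG12V, an H-Ras protein locked in its active state. The Cdk8 KO RasG12V group was Cdk8 -/- and the Cdk19 KO RasG12V group Cdk19 -/-, and both carried H-RasG12V. Cdk8 and Cdk19 are paralogous kinases of the Mediator complex, which links transcription factors to RNA polymerase II. Cells of every group were growing exponentially on collagen with 10% serum, 10 µg/mL insulin, 30 ng/mL IGF2 and 50 ng/mL EGF, so growth factor was present throughout and no group was starved or restimulated. The labels do not say that the 3 libraries of a group came from separate cultures or clones, so p-values measure only the spread between these libraries, which may be technical.

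Immediate early genes are transcribed within minutes of a growth signal without new protein synthesis. Active Ras switches on a kinase cascade that ends in ERK, and ERK phosphorylates ternary complex factors such as Elk1, which sit with serum response factor (the product of Srf) on CArG boxes, and CREB acts at cyclic AMP response elements (CREs). The Egr proteins and Nr4a1 are DNA-binding factors that pass the signal on, while Dusp1, Zfp36 and Btg2 restrain it: Dusp1 dephosphorylates MAP kinases, Zfp36 speeds the decay of AU-rich messenger RNAs, and Btg2 slows proliferation and recruits deadenylases. In liver several of these genes are known for their rapid rise after partial hepatectomy.

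Promoter sequences show which of these elements lie close to the start sites. RefSeq promoter windows on GRCm38.p6, running from 250 bases before to 50 bases after the start site, were matched by symbol for 7 of the 10 genes; Egr1, Egr3 and Ier2 had no entry. A CArG box (CC, then 6 bases that are each A or T, then GG, read on both strands) was present in 3 of the 7, those of Egr2, Srf and Zfp36, against 1.63% of all 32851 windows. The full CRE, TGACGTCA, was present in Dusp1 and Btg2, against 1.79% of all windows. Its first 5 bases, TGACG, which also occur inside the full CRE, were present on either strand in 5 of the 7, against 20.8%. The 5 windows with TGACG are shown, so that these elements can be seen in place, from position -250 to position -51. This stops short of the RefSeq start site used, but the stretches of Egr2, Nr4a1 and Dusp1 lie inside the gene spans given below. The start site used lay 53027 bases from that of the first GENCODE transcript for Dusp1 and 1025 bases for Zfp36. For the rest the distance was 0 to 35 bases. Capitals mark CArG boxes and TGACG on either strand (CGTCA on the opposite strand).
Egr2: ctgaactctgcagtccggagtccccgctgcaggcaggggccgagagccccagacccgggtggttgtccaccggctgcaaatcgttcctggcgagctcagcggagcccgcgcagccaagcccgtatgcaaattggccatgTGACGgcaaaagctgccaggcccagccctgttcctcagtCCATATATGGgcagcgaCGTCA
Srf: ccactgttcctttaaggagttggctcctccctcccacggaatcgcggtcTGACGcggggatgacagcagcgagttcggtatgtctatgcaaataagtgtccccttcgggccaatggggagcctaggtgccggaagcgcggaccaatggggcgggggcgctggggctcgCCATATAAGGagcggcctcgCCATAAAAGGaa
Nr4a1: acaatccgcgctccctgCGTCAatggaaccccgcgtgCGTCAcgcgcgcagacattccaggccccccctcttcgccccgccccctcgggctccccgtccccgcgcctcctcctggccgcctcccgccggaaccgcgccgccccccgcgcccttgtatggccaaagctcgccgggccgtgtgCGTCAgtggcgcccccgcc
Dusp1: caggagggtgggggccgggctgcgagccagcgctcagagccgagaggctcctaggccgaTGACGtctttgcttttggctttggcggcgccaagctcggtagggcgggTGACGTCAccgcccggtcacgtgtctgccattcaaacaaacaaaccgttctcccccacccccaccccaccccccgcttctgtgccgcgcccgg
Btg2: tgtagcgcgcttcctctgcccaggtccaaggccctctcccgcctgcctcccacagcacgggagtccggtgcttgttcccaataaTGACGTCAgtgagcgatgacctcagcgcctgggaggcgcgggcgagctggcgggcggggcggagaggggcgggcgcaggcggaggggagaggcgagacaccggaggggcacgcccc
These stretches lie at chr10:67537619-67537818 (plus strand), chr17:46556213-46556412 (minus), chr15:101266596-101266795 (plus), chr17:26508523-26508722 (minus) and chr1:134079206-134079405 (minus). The Egr2 CArG box begins 72 bases before the start site, and Srf holds a pair of them, at 82 and 62 bases before its own start site. Nr4a1 has no exact CArG box and 4 TGACG elements, at 233, 213, 69 and 40 bases before the start, of which the last lies outside the stretch shown. The CRE begins 143 bases before the start in Dusp1 and 166 bases before it in Btg2. The CArG box of Zfp36 begins 58 bases before its start. The ETS core CCGGAA was found in Nr4a1, Srf and Zfp36 (14.9% of all windows), TATAAA in Srf (13.6%), and the Egr site GCGTGGGCG in none of the 7 (0.612%), on both strands throughout. When 1 mismatch in the middle bases was allowed, CArG-like elements were found in 6 of the 7, against 9.98% of all windows. Matches describe letters in a window and carry no information on binding.

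Between 24823560 and 36879661 reads were counted per library, and levels are given as CPM, counts per 1000000 counts after TMM scaling between libraries. The third RasG12V library stood apart: 30.8% of tested genes lay at least 0.5 log2 from the mean of the other two libraries of that group, against 7.14% for the third Cdk8 KO RasG12V library and 8.65% for the third Cdk19 KO RasG12V library. The third untransformed library came next, at 19.4%. Hras, whose counts include any from the H-RasG12V transgene that map to the gene, rose from 49.9 ± 8.56 CPM in untransformed to 453 ± 122 in RasG12V cells (SD, n = 3 each, adjusted p = 4.0e-07), with the third RasG12V library lowest at 312 CPM. Cdk8 counts were 42.8 ± 1.30 CPM in Cdk8 KO RasG12V against 54.5 ± 3.13 in RasG12V cells (adjusted p = 0.415), and Cdk19 counts 49.8 ± 4.21 in Cdk19 KO RasG12V against 75.1 ± 16.0 (adjusted p = 0.243). Gene-level counts do not check the deleted part. Hepatic progenitor markers summed to between 6042 and 9585 CPM in every library, with Krt8, Krt18, Krt19, Hnf4a and Cdh1 all above 166 CPM, Dlk1 at 0 counts in all groups and Epcam at 4 to 9 counts a group. The sum was higher in untransformed (7940 to 9585 CPM) than in RasG12V (6162 to 7882), Cdk8 KO RasG12V (6517 to 7544) and Cdk19 KO RasG12V libraries (6042 to 6954). Cdh1 stood at 506 to 574, 217 to 472, 208 to 247 and 166 to 216 CPM in that order, and Alb had 281 counts over the untransformed libraries and 0 to 2 in each transformed group. The sum came mostly from Krt8, Krt18 and Krt19, and other markers of the list went the other way. Sox9 stood at 23.8 to 39.2, 55.8 to 90.6, 41.3 to 44.3 and 50.0 to 54.9 CPM in the same order. Afp stood at 7.09 to 11.4, 14.7 to 16.2, 19.3 to 21.7 and 17.5 to 18.6 CPM. Prox1 and Tbx3 were also higher in every RasG12V library than in any untransformed one. Markers of stellate cells summed to at most 2.34 CPM, of endothelium to 0.669, of erythroid cells to 0.207 and of macrophages to 7.92, the last mostly Cd68, with 4 of the 9 macrophage and leukocyte markers at 0 counts in every group. The mesothelial sum of 1091 to 1658 CPM was nearly all Msln, and Wt1 had 3 to 5 counts a group. In bulk RNA, fewer cells expressing a gene and less RNA per cell cannot be told apart.

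The first question was how the immediate early genes stand in cells carrying H-RasG12V. The 3 Egr genes, Nr4a1 and Ier3 rose in RasG12V over untransformed cells, by between 0.84 and 2.38 log2, and no member fell. These 5 of 10 compare with 11.9% of all tested genes called higher and 11.5% called lower (edgeR quasi-likelihood test, Benjamini-Hochberg adjusted p under 0.05 over all tested genes). The members' median log2 fold change was 0.65, against -0.00 for all tested genes. Because the members were chosen with earlier results of these data known, neither comparison is an independent test. Srf, Ier2, Dusp1, Zfp36 and Btg2 did not pass the test. The summed hepatic progenitor markers, and Cdh1 and Alb among them, were lower in the same libraries, while Sox9, Afp, Prox1 and Tbx3 were higher. The part of these markers in the differences of the members was not tested. In 5 members the RasG12V libraries all lay above the untransformed ones and in 1 they all lay below, against 16.2% and 16.2% of tested genes.

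**Figure D1:**
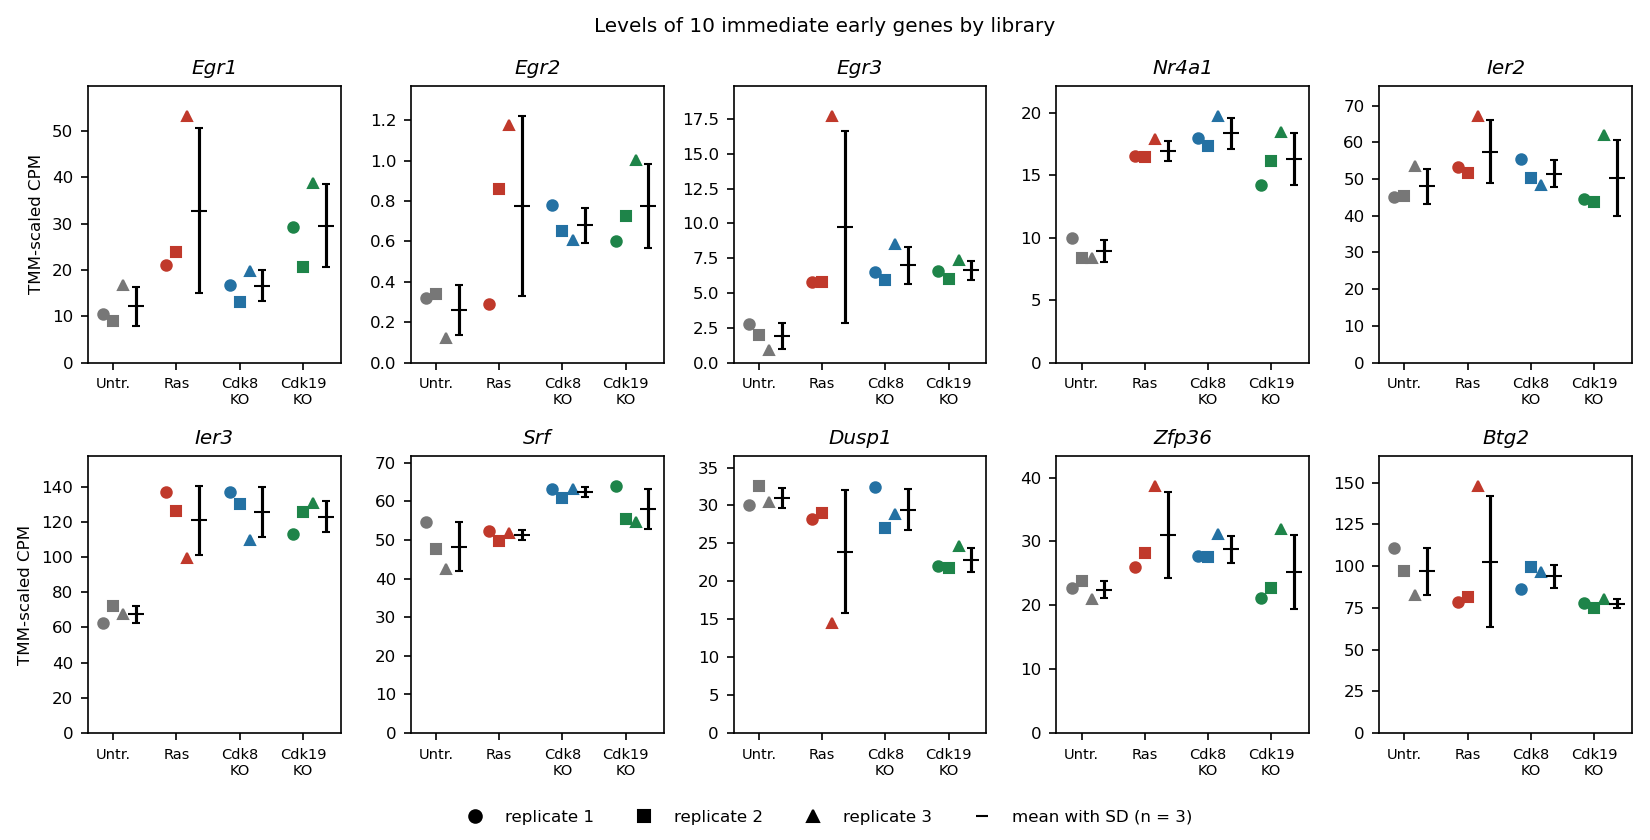
Level of each gene in every library, in CPM (linear axes from 0), for untransformed (Untr.), RasG12V (Ras), Cdk8 KO RasG12V and Cdk19 KO RasG12V cells. Symbols mark replicates 1 to 3, and bars show the mean and SD (n = 3). Egr3, Nr4a1 and Ier3 separate the untransformed libraries from all others, and the third RasG12V library is the highest of all 12 for Egr1, Egr2, Egr3, Ier2, Zfp36 and Btg2 and the lowest for Dusp1.

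Egr1 encodes the founding zinc finger factor of the family, induced by growth factors in most cell types. The gene (ENSMUSG00000038418) spans chr18:34859823-34864984 on the plus strand of GRCm38. Its level was 10.5, 8.96 and 16.8 CPM in the 3 untransformed libraries and 21.1, 23.9 and 53.3 in the 3 RasG12V libraries. All RasG12V libraries were above all untransformed ones, but the third was more than the other two together. The mean went from 12.1 ± 4.17 to 32.8 ± 17.9 CPM (SD, n = 3), a log2 fold change of 1.44 (SE 0.36, adjusted p = 0.0118). Without the third RasG12V library the log2 fold change was 0.90 (adjusted p = 0.0464), and without the third library of both groups it was 1.20 (adjusted p = 0.0219). The call was lost without the first untransformed library (adjusted p = 0.0539) or without the second (adjusted p = 0.0565).

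Egr3, which shares the zinc finger domain and is itself a target of growth factor signalling in many cells, showed the largest fold change of the 10. The gene (ENSMUSG00000033730) spans chr14:70077203-70082614 on the plus strand. Its level was 2.77, 2.01 and 0.924 CPM in untransformed and 5.75, 5.76 and 17.7 CPM in RasG12V libraries. The groups did not overlap, and again the third RasG12V library stood far above the other two. The mean of 9.75 ± 6.92 against 1.90 ± 0.93 CPM gave a log2 fold change of 2.38 (SE 0.46, adjusted p = 0.00237). With the third library of both groups left out it was 1.26 (adjusted p = 6.1e-05). The third untransformed library was also the lowest of its group.

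Egr2, known for its part in myelination and in immune cell tolerance, (ENSMUSG00000037868, chr10:67535475-67542188, plus strand) was near the limit of detection, with 9, 11 and 4 counts in untransformed and 8, 21 and 39 in RasG12V libraries. In CPM these were 0.319, 0.34 and 0.119 and 0.291, 0.858 and 1.17. The first RasG12V library lay among the untransformed ones, so the groups overlapped. The log2 fold change of 1.60 (SE 0.49, adjusted p = 0.0343) was called, but not without the third RasG12V library (1.14, adjusted p = 0.109) nor without the third library of both groups (0.75, adjusted p = 0.258). It was also not called without the first, the second or the third untransformed library (adjusted p = 0.0676, 0.0555 and 0.0969). Nor was it called without the second RasG12V library (0.0790) or the third Cdk8 KO RasG12V library (0.0505). The last of these enters only through the shared filter, scaling, estimate of the spread and adjustment.

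Nr4a1, an orphan nuclear receptor also called Nur77, gave even values within each group. The gene (ENSMUSG00000023034) spans chr15:101254269-101274795 on the plus strand. It stood at 9.93, 8.38 and 8.40 CPM in untransformed and 16.5, 16.5 and 17.9 CPM in RasG12V libraries. No library of either group came near the other group, and the third RasG12V library was like its partners here. The rise from 8.90 ± 0.89 to 16.9 ± 0.80 CPM was 0.93 log2 (SE 0.12, adjusted p = 0.000123), and the call held under each of the 22 alternative settings, with a log2 fold change between 0.84 and 1.00.

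Ier3, also called IEX-1, encodes a short-lived protein tied to cell survival and to the ERK pathway. The gene (ENSMUSG00000003541) spans chr17:35821684-35822923 on the plus strand. Its level was 62.3, 72.2 and 67.7 CPM in untransformed libraries. In RasG12V libraries it was 137, 126 and 99.3 CPM, clear of the untransformed range, with the third library the lowest of the 3. The means were 67.4 ± 4.94 and 120.8 ± 19.5 CPM, a log2 fold change of 0.84 (SE 0.12, adjusted p = 0.000347) that kept its call under all 22 alternatives. Ier2, which encodes a small nuclear protein (ENSMUSG00000053560, chr8:84661331-84662852, minus strand), stood at 45.1, 45.5 and 53.5 CPM in untransformed and 53.2, 51.7 and 67.3 in RasG12V libraries. The ranges overlapped, and the log2 fold change of 0.26 (approximate 95% interval -0.06 to 0.57) did not pass the test (adjusted p = 0.233).

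Srf, the factor that reads the CArG box, differed little. The gene (ENSMUSG00000015605) spans chr17:46548329-46556175 on the minus strand. Its level was 54.8, 47.8 and 42.3 CPM in untransformed and 52.3, 49.7 and 51.7 CPM in RasG12V libraries. The RasG12V values sat inside the untransformed range. The log2 fold change was 0.09 (approximate 95% interval -0.12 to 0.29, adjusted p = 0.580).

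Among the genes that restrain the response, none passed the test. Dusp1, a nuclear MAP kinase phosphatase (ENSMUSG00000024190, chr17:26505590-26562128, minus strand), stood at 30.1, 32.5 and 30.5 CPM in untransformed and 28.2, 29.0 and 14.5 CPM in RasG12V libraries. All RasG12V values were below all untransformed ones, narrowly in the first 2 libraries and widely in the third. The log2 fold change was -0.38 (approximate 95% interval -0.81 to 0.05, adjusted p = 0.199), and -0.10 without the third RasG12V library (adjusted p = 0.451). Dusp1 shares genomic bases with Ergic1 on the opposite strand, and the counts used here were taken by strand.

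Zfp36, also called tristetraprolin (ENSMUSG00000044786, chr7:28376784-28380253, minus strand), stood at 22.6, 23.8 and 21.0 CPM in untransformed and 26.0, 28.2 and 38.6 CPM in RasG12V libraries. The groups did not overlap, and the third RasG12V library was highest. The log2 fold change of 0.46 (approximate 95% interval 0.10 to 0.83) missed the threshold (adjusted p = 0.0664), was called by DESeq2 (adjusted p = 0.0419), and was 0.21 without the third library of both groups (adjusted p = 0.318). It also passed without the first RasG12V library (0.59, adjusted p = 0.0377) and without the third Cdk19 KO RasG12V library (0.46, adjusted p = 0.0392). Without a filter on low counts it passed as well (0.48, adjusted p = 0.00419).

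Btg2 (ENSMUSG00000020423, chr1:134075170-134079120, minus strand) turned on single libraries. It stood at 111, 97.0 and 82.8 CPM in untransformed and 78.7, 81.5 and 148 CPM in RasG12V libraries. The first 2 RasG12V libraries lay below every untransformed one and the third above them all. The log2 fold change was 0.09 over all libraries (adjusted p = 0.806). Without the third library of both groups it turned to -0.39 (adjusted p = 0.000733), a fall, in a setting that called 40.0% of all tested genes in either direction against 23.4% with all libraries. Whether the third RasG12V library or the first 2 better represent these cells was not tested.

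**Figure D2:**
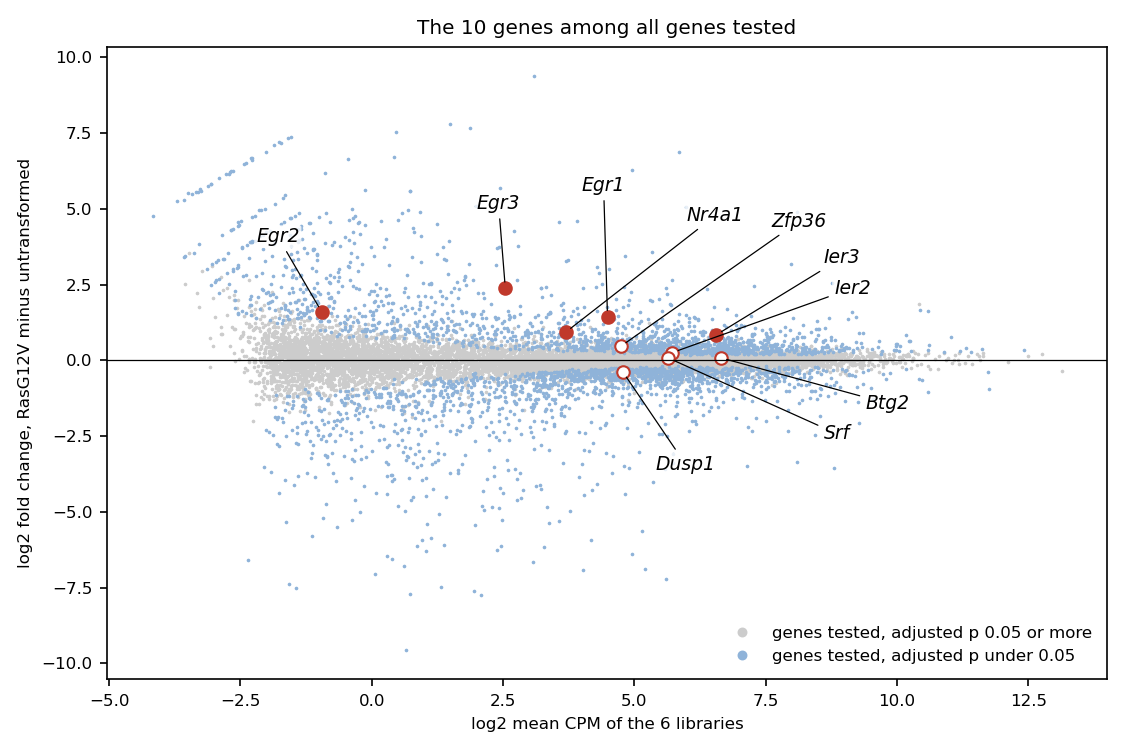
Log2 fold change of RasG12V over untransformed cells against the log2 mean CPM of the 6 libraries, for all 14283 tested genes (grey, adjusted p 0.05 or more; blue, under 0.05), with the 10 immediate early genes circled (filled where called). The Egr genes, Nr4a1 and Ier3 lie among the called higher genes, and Srf, Ier2 and Btg2 close to 0.

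Loss of Cdk8 was compared with RasG12V cells next. No member passed the test, and neither did any of the 14283 genes (0.00% called by edgeR; 2 members and 6.10% of genes had an unadjusted p under 0.05). DESeq2 and limma-voom also called no member (0.210% and 0.00% of tested genes were called). The groups did not overlap for 2 members, Egr1 and Srf, against 12.5% of tested genes. Egr1 was 16.7, 13.2 and 19.8 CPM in the Cdk8 KO RasG12V libraries, all below the RasG12V ones, with a mean of 16.6 ± 3.33 CPM. The log2 fold change was -0.99 (SE 0.35, approximate 95% interval -1.76 to -0.22, unadjusted p = 0.0158, adjusted p = 0.749). Leaving out the third RasG12V library gave -0.44 (adjusted p = 0.645). Srf was 63.1, 60.9 and 63.2 CPM, all above the RasG12V libraries, at a log2 fold change of 0.28 (SE 0.10, approximate 95% interval 0.08 to 0.49, unadjusted p = 0.0115, adjusted p = 0.736) and of 0.30 without the third RasG12V library (adjusted p = 0.351).

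The remaining 8 members overlapped between these 2 groups. Egr3 stood at 6.54, 5.91 and 8.48 CPM after loss of Cdk8, above the first 2 RasG12V libraries and below the third. Its log2 fold change of -0.49 (interval -1.39 to 0.41) became 0.28 without the third RasG12V library. Egr2 stood at 0.778, 0.651 and 0.608 CPM, between the first RasG12V library and the other two. Nr4a1, at 18.0, 17.3 and 19.8 CPM, overlapped the RasG12V libraries (log2 difference 0.11, approximate 95% interval -0.13 to 0.36). Ier3, at 137, 129.9 and 109 CPM, had an interval of -0.21 to 0.32. Ier2 stood at 55.6, 50.3 and 48.4 CPM, a log2 difference of -0.16 from RasG12V cells. For the restraining genes, Dusp1 stood at 32.4, 27.1 and 28.9 CPM (log2 difference 0.30, interval -0.13 to 0.73). Zfp36 stood at 27.6, 27.5 and 31.2 CPM (-0.11, interval -0.47 to 0.26). Btg2 stood at 86.0, 99.4 and 96.2 CPM (-0.13, interval -0.56 to 0.30). These intervals are wide for the Egr genes and Dusp1, and a p that misses the threshold does not show that the groups were alike.

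Loss of Cdk19 likewise left no member past the test against RasG12V cells, where 2 of 14283 genes, 0.0140%, were called by edgeR, and no member had an unadjusted p under 0.05 (7.62% of genes did). DESeq2 and limma-voom called no member either (0.462% and 0.0140% of tested genes were called). Only Srf did not overlap between the groups, against 14.5% of tested genes. It stood at 63.9, 55.4 and 54.6 CPM, above RasG12V cells by 0.18 log2 (SE 0.10, adjusted p = 0.695). Egr1 stood at 29.2, 20.7 and 38.7 CPM, with the third library the highest, and differed from RasG12V cells by -0.15 log2 (interval -0.91 to 0.60). Without the third RasG12V library that difference was 0.39 (adjusted p = 0.771). Egr2 was 0.599, 0.725 and 1.00 CPM and Egr3 6.56, 6.01 and 7.36 CPM, at log2 differences of -0.01 and -0.56 with intervals of -0.95 to 0.93 and -1.47 to 0.34. Both overlapped the RasG12V libraries.

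In the same comparison Nr4a1 stood at 14.2, 16.2 and 18.4 CPM (log2 difference -0.06, interval -0.31 to 0.19) and Ier3 at 113, 126 and 131 CPM (0.03, interval -0.24 to 0.29). Ier2 stood at 44.7, 43.7 and 62.1 CPM, with the first 2 libraries below all RasG12V libraries and the third among them (-0.19, interval -0.51 to 0.12). The 3 restraining genes had negative log2 differences, none past the test. Dusp1 stood at 22.0, 21.7 and 24.6 CPM, below the first 2 RasG12V libraries and above the third. Its log2 difference was -0.06 over all libraries and -0.33 without the third RasG12V library (adjusted p = 0.332). Zfp36 stood at 21.1, 22.8 and 31.9 CPM (-0.30, interval -0.66 to 0.07) and Btg2 at 77.9, 74.6 and 80.0 CPM (-0.41, interval -0.84 to 0.03, adjusted p = 0.677). The Btg2 difference was -0.05 without the third RasG12V library. The third Cdk19 KO RasG12V library was the highest of its group for 9 of the 10 members, all but Srf, against 36.2% of tested genes for which it was highest.

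**Figure D3:**
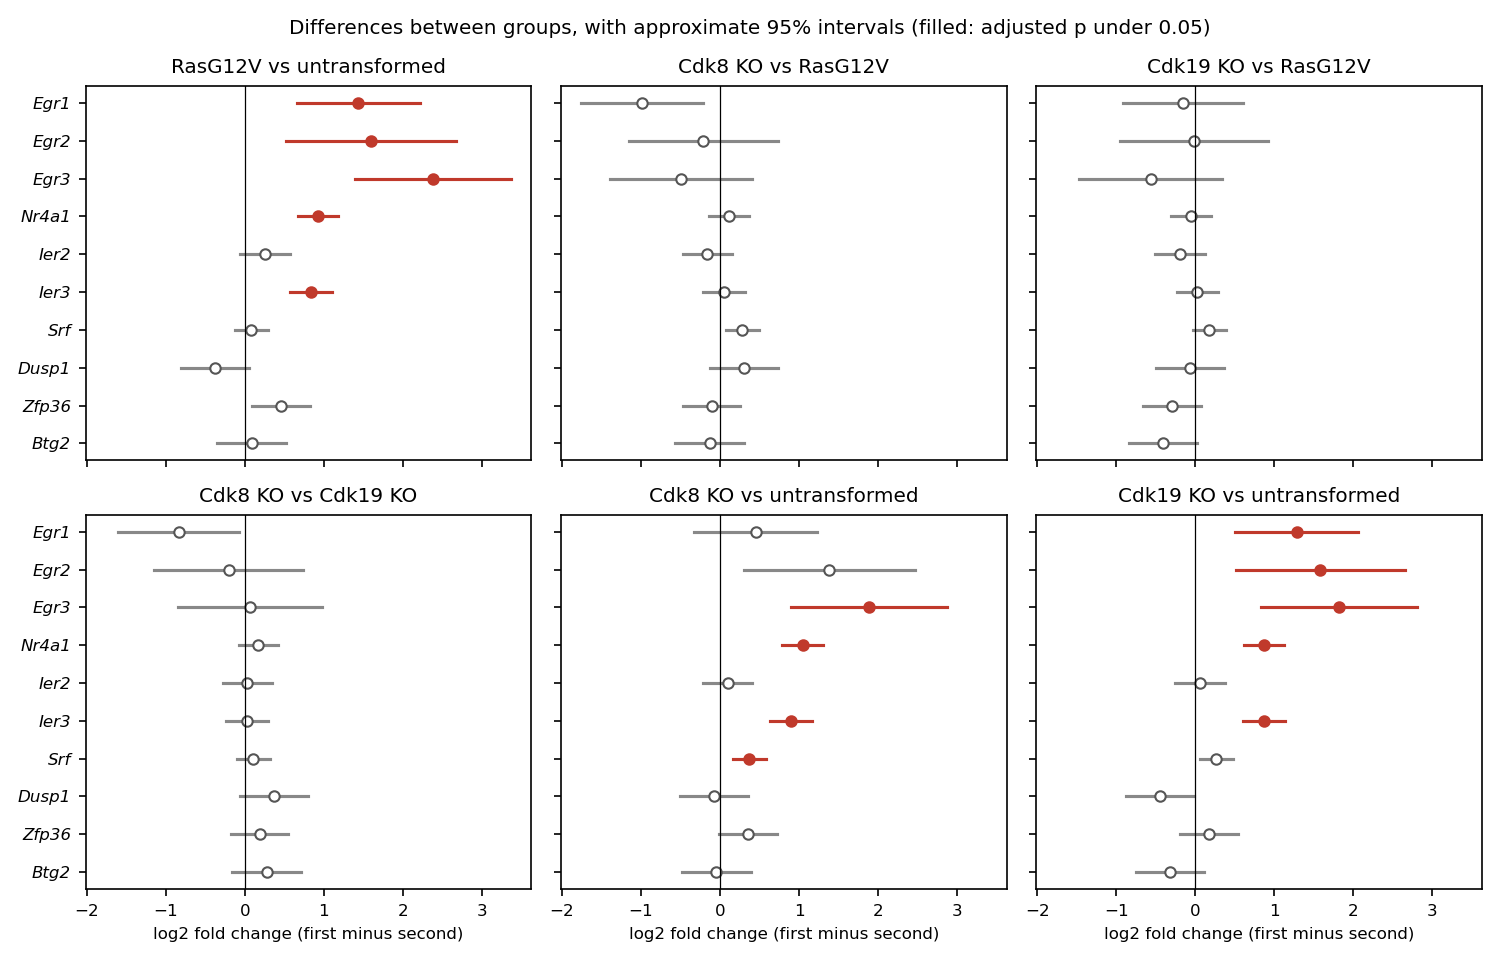
Log2 fold change of each gene in all 6 comparisons (first group minus second), with approximate 95% intervals. Filled red points passed an adjusted p of 0.05. The Nr4a1 and Ier3 intervals exclude 0 in each comparison with untransformed cells and include 0 in each comparison among the transformed groups.

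Between the 2 knockouts no member passed the test, and 15 genes did, 0.105% of those tested by edgeR. One member, Egr1, had an unadjusted p under 0.05, against 7.19% of genes. DESeq2 and limma-voom called no member (0.805% and 0.112% of tested genes were called). The groups did not overlap for 3 members, against 20.7% of tested genes. Egr1 was lower in Cdk8 KO RasG12V than in Cdk19 KO RasG12V cells, 16.6 ± 3.33 against 29.5 ± 8.99 CPM (log2 fold change -0.83, SE 0.35, unadjusted p = 0.0354, adjusted p = 0.663). Dusp1 was higher, 29.4 ± 2.71 against 22.8 ± 1.61 CPM (0.37, SE 0.20, adjusted p = 0.779), and so was Btg2, 93.9 ± 7.02 against 77.5 ± 2.74 CPM (0.28, SE 0.20, adjusted p = 0.908). Both passed the test when only these 2 groups were fitted (adjusted p = 0.0246 and 0.0317). Both also passed when the third untransformed and RasG12V libraries were left out (0.0101 and 0.0181). Those libraries enter only through the shared filter, scaling, spread and adjustment. In these settings 3.63% and 5.32% of all tested genes were called, against the 0.105% above. The other 7 members overlapped.

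**Figure D4:**
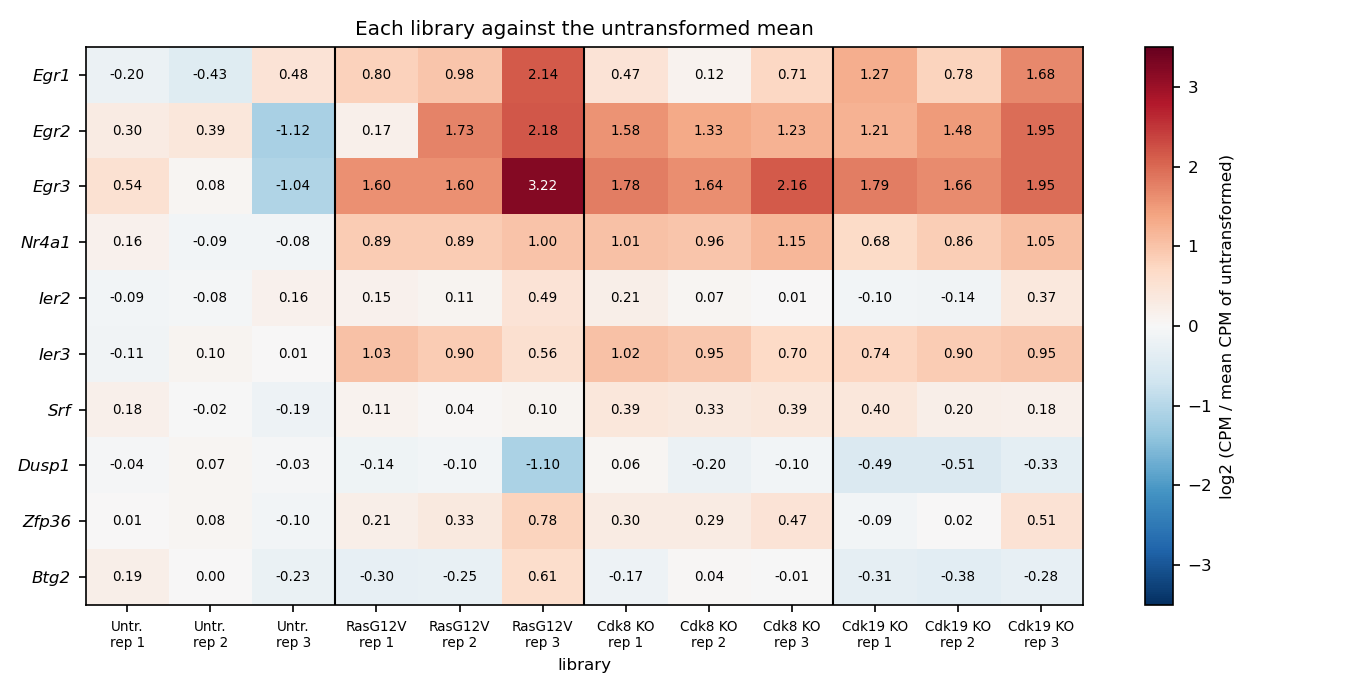
Log2 ratio of each library to the untransformed mean for the 10 genes (rows), with the 12 libraries in columns by group; red is above and blue below the untransformed mean. The 3 Egr genes, Nr4a1 and Ier3 are above it in all 9 transformed libraries, Srf also but by as little as 0.04, and Dusp1 is at -1.10 in the third RasG12V library.

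Both knockouts were also compared with untransformed cells, which asks whether the members still differed from them once a kinase was lost. These comparisons and the one with RasG12V cells share the 3 untransformed libraries, so their agreement is no independent evidence, and the values are set side by side. In Cdk8 KO RasG12V cells 4 of 10 members rose and none fell, against 12.3% and 12.2% of tested genes. In Cdk19 KO RasG12V cells 5 of 10 rose and none fell, against 12.4% and 12.9%. No member was called lower by DESeq2 or limma-voom in any comparison with untransformed cells, and at an unadjusted p under 0.05 only Dusp1 in Cdk19 KO RasG12V cells was lower (edgeR, unadjusted p = 0.0441, adjusted p = 0.126). Groups did not overlap for 6 members, all higher, after loss of Cdk8 (20.6% of tested genes were higher and 22.0% lower without overlap), and for 5 higher and 2 lower after loss of Cdk19 (21.7% and 22.1%).

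Nr4a1 was above untransformed cells by 1.04 log2 (SE 0.12, adjusted p = 5.0e-05) in Cdk8 KO RasG12V and by 0.87 (SE 0.12, adjusted p = 0.000186) in Cdk19 KO RasG12V cells, beside 0.93 in RasG12V cells. Ier3 gave 0.90 (SE 0.12, adjusted p = 0.000226), 0.87 (SE 0.12, adjusted p = 0.000259) and 0.84 in the same order. Egr3 gave 1.89 (SE 0.45, adjusted p = 0.00917), 1.82 (SE 0.46, adjusted p = 0.0111) and 2.38. For these 3 genes the difference between any 2 transformed groups did not pass the test.

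In the main fit, calls for Egr1, Egr2 and Srf differed between the knockouts. With DESeq2 they differed only for Egr1 (adjusted p = 0.358 after loss of Cdk8 and 0.00116 after loss of Cdk19). DESeq2 called 27.1% and 28.4% of all tested genes in these comparisons, against 24.4% and 25.3% in the main fit. Egr1 gave 0.45 log2 over untransformed cells after loss of Cdk8 (SE 0.36, adjusted p = 0.410) and 1.29 after loss of Cdk19 (SE 0.36, adjusted p = 0.0193). The test of the difference itself is the comparison of the knockouts given above, which none of the 3 genes passed. The second call was lost without the third Cdk19 KO RasG12V library (1.03, adjusted p = 0.0832) and without the first (1.19, adjusted p = 0.0774) or second (1.10, adjusted p = 0.0830) untransformed library. Egr2 gave 1.38 (SE 0.50, adjusted p = 0.0615) and 1.58 (SE 0.49, adjusted p = 0.0330), from 20 to 24 counts per Cdk8 KO RasG12V library and 17 to 30 per Cdk19 KO RasG12V library. Its second call was lost without any of the 3 untransformed libraries, at adjusted p = 0.0632, 0.0521 and 0.0990, and without the second (0.0652) or the third (0.117) Cdk19 KO RasG12V library. Its first value passed without the first (adjusted p = 0.0199) or the third (0.0253) RasG12V library, which enter only through the shared filter, scaling, spread and adjustment. That value also passed with only the 2 groups in the fit (0.0254). DESeq2 called Egr2 in both knockouts (adjusted p = 0.0436 and 0.0172).

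Srf was called higher in Cdk8 KO RasG12V than in untransformed cells, by 0.37 log2 (SE 0.10, adjusted p = 0.0137). Every Cdk8 KO RasG12V library lay above every untransformed one. These groups differ in H-RasG12V as well as Cdk8, and against RasG12V cells Srf was not called (0.28, adjusted p = 0.736). In Cdk19 KO RasG12V cells it was 0.26 above untransformed cells (SE 0.10, adjusted p = 0.0627), with overlapping libraries. The Cdk8 call was lost without the second untransformed library (0.36, adjusted p = 0.0529) or the third Cdk8 KO RasG12V library (0.35, adjusted p = 0.0518). The Cdk19 value passed without the first untransformed library (0.35, adjusted p = 0.0245) and without the third RasG12V library (0.28, adjusted p = 0.0276). It also passed with upper quartile scaling (adjusted p = 0.0389) and with a filter of 1 CPM in 3 libraries (0.0448). DESeq2 called Srf higher than in untransformed cells in both knockouts (adjusted p = 0.00224 in Cdk8 KO RasG12V and 0.0408 in Cdk19 KO RasG12V cells).

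Zfp36 stood 0.36 above untransformed cells after loss of Cdk8, without overlap (adjusted p = 0.150, and 0.0381 without the third RasG12V library), and 0.17 above after loss of Cdk19 (adjusted p = 0.512). The first value also passed with only the 2 groups in the fit (0.38, adjusted p = 0.0160) and without a filter on low counts (adjusted p = 0.0421). Dusp1 overlapped between Cdk8 KO RasG12V and untransformed cells and was not called (-0.08, interval -0.51 to 0.35, adjusted p = 0.825). In Cdk19 KO RasG12V cells it was lower than in untransformed cells without overlap (-0.45, interval -0.88 to -0.01, adjusted p = 0.126). Btg2 gave -0.04 (adjusted p = 0.906) and -0.32 (adjusted p = 0.274), the latter again without overlap. The third RasG12V library enters these comparisons only through the shared filter, scaling, spread and adjustment. With it left out, both Dusp1 (-0.43, adjusted p = 0.00152) and Btg2 (-0.31, adjusted p = 0.0182) passed as lower in Cdk19 KO RasG12V than in untransformed cells. In that setting 35.0% of all tested genes were called in this comparison, against 25.3% with all libraries, and 33.5% against 24.4% after loss of Cdk8. Ier2 differed by 0.10 (adjusted p = 0.681) and 0.06 (adjusted p = 0.799).

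To set genes side by side, levels were also taken as mean CPM per kilobase of exon, with all annotated exons of a gene merged. For Zfp36 that length, 3470 bases, covers its whole gene span, so its place in the order depends on this choice. Ier3 was the highest of the 10 in every group, at 59.6 ± 4.37 in untransformed and 107 ± 17.2 in RasG12V cells. Btg2 (35.3 ± 5.08) and Ier2 (31.6 ± 3.12) followed in untransformed cells, and in RasG12V cells Ier2 (37.7 ± 5.65) and Btg2 (37.4 ± 14.3). These neighbours did not differ beyond their spread. Srf came next in every group, at 16.7 ± 2.15 in untransformed and 21.6 ± 0.45 in Cdk8 KO RasG12V cells. Dusp1, Zfp36, Egr1 and Nr4a1 filled the middle, between 2.54 and 9.38 in untransformed cells, where Egr1 (2.70 ± 0.93) and Nr4a1 (2.54 ± 0.25) lay within their spread. In RasG12V cells Egr1 (7.31 ± 3.98) and Dusp1 (7.22 ± 2.46) could not be separated. Egr3 (0.43 ± 0.21 in untransformed, 2.21 ± 1.57 in RasG12V cells) and Egr2 (0.08 ± 0.04 and 0.23 ± 0.13) were the lowest in all 4 groups.

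None of the 5 tested relatives from the Nr4a, Zfp36, Btg and Ier families passed the test in RasG12V over untransformed cells. Egr4 had 0 counts in 3 groups and 1 count in Cdk19 KO RasG12V cells, and Nr4a3 had 6 to 11 counts a group. Nr4a2 was 4.06 ± 0.04 CPM in untransformed and 3.07 ± 0.26 in RasG12V cells, opposite in sign to Nr4a1 but not past the test (log2 fold change -0.40, adjusted p = 0.0796). Zfp36l1 went from 128 ± 24.3 to 179 ± 56.9 CPM (0.48, adjusted p = 0.0837), with 244 CPM in the third RasG12V library. Btg1 went from 155 ± 17.4 to 205 ± 61.9 CPM (0.40, adjusted p = 0.0916), with 276 CPM in that same library. Zfp36l2 (-0.03, adjusted p = 0.826) and Ier5 (-0.19, adjusted p = 0.117) also missed the threshold.

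Of 38 other immediate early genes, 34 were tested, and in RasG12V over untransformed cells 12 rose and 7 fell, with a median log2 fold change of -0.02 against -0.00 for all tested genes, of which 11.9% rose and 11.5% fell. The 3 with the smallest adjusted p were Klf2, a Krüppel-like factor (0.73 to 9.98 CPM, log2 fold change 3.75, adjusted p = 1.2e-06), Fosb, an AP-1 subunit (0.74 to 9.74 CPM, 3.71, adjusted p = 4.4e-06), and Dusp5, a nuclear ERK phosphatase (37.7 to 102.6 CPM, 1.45, adjusted p = 8.6e-06). Dusp5 rose, then, where Dusp1, which acts on several MAP kinases, did not pass the test. The 7 that fell are named here after their values were seen. They were Klf4 (-1.11), Gadd45b (-1.39), Ccn2 (-0.80), Mcl1 (-0.31), Ccn1 (-1.03), Tnfaip3 (-0.58) and Fos. Fos went from 4.89 to 2.77 CPM with overlapping libraries (-0.81, adjusted p = 0.0447). Over untransformed cells 11 of the 34 rose and 4 fell in Cdk8 KO RasG12V (median -0.01 against -0.01) and 11 rose and 8 fell in Cdk19 KO RasG12V cells (0.00 against -0.00). Of all tested genes, 12.3% rose and 12.2% fell in the first and 12.4% and 12.9% in the second. Fosb, Dusp5 and Klf2 led both, with log2 fold changes of 3.76, 1.58 and 2.66 after loss of Cdk8 and 3.45, 1.37 and 3.53 after loss of Cdk19. None of the 34 was called by edgeR or limma-voom in the 3 comparisons among transformed groups, where 5, 3 and 5 had an unadjusted p under 0.05 (Cdk8 KO and Cdk19 KO RasG12V against RasG12V, and the knockouts against each other), beside 6.10%, 7.62% and 7.19% of all tested genes. DESeq2 called 1 gene, Klf2, lower in Cdk8 KO RasG12V than in RasG12V (-1.08, adjusted p = 0.00171) and than in Cdk19 KO RasG12V cells (-0.86, adjusted p = 0.0175). It called 0.210% and 0.805% of all tested genes in these comparisons.

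A list of 13 genes held Srf cofactors and Egr co-repressors. It also held Creb1, Crem and the kinase genes Rps6ka1, Rps6ka3 and Rps6ka5, which are neither. Of the 13, 12 were tested. In RasG12V over untransformed cells 3 rose and 1 fell (median 0.12), beside 11.9% and 11.5% of all tested genes, led by Nab2, a co-repressor that binds Egr proteins (15.3 to 26.5 CPM, log2 fold change 0.79, adjusted p = 0.000334), with the ternary complex factors Elk1 (0.51, adjusted p = 0.0107) and Elk4 (0.31, adjusted p = 0.0261). The one that fell was Rps6ka1, a kinase downstream of ERK, named here after its value was seen (-0.33, adjusted p = 0.0497). In Cdk8 KO RasG12V cells 2 rose and 1 fell (median -0.02, beside 12.3% and 12.2% of all genes): Nab2 gave 0.56 (adjusted p = 0.00348), Elk1 0.47 (adjusted p = 0.0165) and Nab1, the other Egr co-repressor, fell by 0.50 (adjusted p = 0.00276). In Cdk19 KO RasG12V cells 2 rose and 2 fell (median 0.04, beside 12.4% and 12.9%), with Nab2 at 0.80 (adjusted p = 0.000298), Nab1 at -0.31 (adjusted p = 0.0395) and Elk1 at 0.38 (adjusted p = 0.0411). None was called by edgeR, DESeq2 or limma-voom among the transformed groups (2, 1 and 1 with an unadjusted p under 0.05, in the order above, beside 6.10%, 7.62% and 7.19% of all genes).

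Of 20 cytoskeletal targets of Srf and its MRTF cofactors, 16 were tested. In RasG12V over untransformed cells 3 rose and 1 fell (median -0.11), beside 11.9% and 11.5% of all tested genes: Tgfb1i1 rose from 0.22 to 0.95 CPM (2.08, adjusted p = 0.00414), Actb by 0.40 (adjusted p = 0.00882) and Cald1 by 0.43 (adjusted p = 0.0209), while Tpm1 fell by 0.39 (adjusted p = 0.00519). After loss of Cdk8, 6 rose and 1 fell over untransformed cells (median 0.09, beside 12.3% and 12.2% of all genes), led by Tgfb1i1 (2.13), Cnn2 (0.63) and Tpm2 (0.46). After loss of Cdk19, 3 rose and 4 fell (median -0.15, beside 12.4% and 12.9%), led by Filip1l (-0.92), Actb (0.39) and Tgfb1i1 (1.78). None was called by edgeR or limma-voom among the transformed groups (3, 1 and 5 with an unadjusted p under 0.05, beside 6.10%, 7.62% and 7.19%). DESeq2 called 1, Vcl, named here after its value was seen, higher in Cdk8 KO RasG12V than in RasG12V cells (0.29, adjusted p = 0.0302). It called 0.210% of all tested genes there.

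Likeness to a member was measured as the root mean square difference between log2 CPM profiles over the 12 libraries, each centred on its mean, among 9407 protein-coding genes. Nearest to Egr1, whose own profile varied by 0.70 log2, were Trpa1 (0.27), Slc27a1 (0.29) and Eya2 (0.34). Trpa1, a cation channel gene, stood at 17.4, 44.7, 30.4 and 45.0 CPM on average in untransformed, RasG12V, Cdk8 KO RasG12V and Cdk19 KO RasG12V cells. For Ier2, which varied by 0.19, the nearest included Fbxl12 (0.07) and Rps26 (0.09). For Srf, which varied by 0.17, they were Ybx1, Bak1 and Ufd1, each at 0.09. The libraries share their depth and their scaling, so likeness is a description only.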

How the data were processed

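BMEL RNA from 12 libraries (4 groups of 3) was analysed from per-library gene count tables deposited by the authors. The counts are whole reads per gene, made with STAR 2.6.0a on GRCm38.p6 with FastQC according to the submitters' processing notes, and the release of the gene models is not given in the sources used here. The labels name rRNA-depleted total RNA and a TruSeq RNA kit. The fourth column of each table, the reverse-strand count, was used because it held 24.7 to 28.9 times the forward-strand count. Reads without a gene stayed out of totals: 2.10% to 3.34% were unmapped, 23.0% to 26.3% multimapping, 4.31% to 5.85% without a feature and 0.963% to 1.04% ambiguous. Reads that map to more than 1 place were thus not counted, which can lower genes with close copies.

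Of 54146 identifiers, 54079 were named from GENCODE M21 and 67 were not. Older symbols in the lists were matched through RefSeq synonyms. edgeR 4.0.16 (R 4.3.3) was run over all 12 libraries and 4 groups, with filterByExpr, TMM scaling, the robust quasi-likelihood F test, no block and Benjamini-Hochberg adjustment over the 14283 genes tested at a threshold of 0.05. CPM are counts per 1000000 after TMM scaling. SE are the log2 fold change over the square root of F, and the approximate 95% intervals use them. Alternatives in 22 settings included DESeq2 1.42.0 and limma-voom (limma 3.58.1). The procedure was tested on simulated data. A count of 3 corresponds to 0.0813 to 0.121 CPM, and counting error is the only error that floor covers. No pair of libraries of a group agreed within sampling noise.

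All 10 members are named, with up to 3 genes per list and comparison by smallest adjusted p, the family members by level, and the 3 nearest profiles (0.1 CPM added before logs, mean of at least 5 CPM) for Egr1, Ier2 and Srf; 1 of these profiles is not reported here. The members and lists were chosen with earlier results of these data known. Where a gene had several RefSeq windows, the one nearest the first GENCODE transcript's start was taken.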

Additional observations from a re-analysis of the deposited data

How the results depend on the processing

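Of 60 member values (10 genes in 6 comparisons), 14 were called, and 7 of these kept their call in all 22 alternative settings: Nr4a1 and Ier3 over untransformed cells in the 3 transformed groups, and Egr3 in RasG12V cells. In 16 values the call changed in at least 1 setting, and 21 values that were called in neither case changed sign. The 1 called value with a changed sign was Btg2 in RasG12V against untransformed cells, -0.39 without the third library of both groups. With only the 2 groups compared in the fit, the count of members called higher in RasG12V over untransformed cells went from 5 to 3, that called lower in Cdk19 KO RasG12V against untransformed cells from 0 to 2, and that called higher in Cdk8 KO RasG12V against Cdk19 KO RasG12V cells from 0 to 2. The share of all tested genes called in those comparisons went from 23.4% to 11.4%, from 25.3% to 28.3% and from 0.105% to 3.63%. Leaving out the third library of both untransformed and RasG12V cells gave 1 member lower in RasG12V cells in place of 0, 2 higher between the knockouts and 2 lower in Cdk19 KO RasG12V against untransformed cells, where the shares of all genes called went to 40.0%, 5.32% and 43.6%. Without a filter on low counts the higher count in Cdk19 KO RasG12V over untransformed cells was 3 (12.9% of all genes called in either direction), and without it calls over untransformed cells were lost for Egr1 in RasG12V (adjusted p = 0.0729) and Cdk19 KO RasG12V (0.102) and for Egr3 in Cdk8 KO RasG12V (0.0567) and Cdk19 KO RasG12V cells (0.0645). The unfiltered setting also gained calls over untransformed cells. These were Zfp36 in RasG12V (adjusted p = 0.00419) and in Cdk8 KO RasG12V (0.0421), and Egr2 in Cdk8 KO RasG12V cells (0.0161). It called 11.3% and 12.1% of all tested genes in these 2 comparisons. With only the 2 groups in the fit, Egr1 (0.0658) and Egr2 (0.143) lost their calls in RasG12V cells, and limma-voom did not call Egr2 there (0.0695). In Cdk8 KO RasG12V over untransformed cells, the fit of only the 2 groups gained calls for Egr2 (0.0254) and Zfp36 (0.0160). There 26.4% of all tested genes were called, against 24.4% in the main fit. Egr2 was not tested under a filter of 1 CPM in 3 libraries. The cause of these changes was not tested. Leaving out 1 library at a time gave 3 to 6 members higher in RasG12V over untransformed cells, 3 to 6 in Cdk8 KO RasG12V and 3 to 6 in Cdk19 KO RasG12V, and 0 to 2 lower in the last. The share of all tested genes called in either direction ran from 16.2% to 33.0%, 17.3% to 33.5% and 18.1% to 35.0% in the same order. The count of windows with a CArG box went from 3 of 7 to 6 of 7 when 1 mismatch was allowed. With a replicate block, 6 members were higher in RasG12V (Zfp36 added, adjusted p = 0.0357), 4 in Cdk8 KO RasG12V and 6 in Cdk19 KO RasG12V cells (Srf added, adjusted p = 0.0350) over untransformed cells, and none was called between the transformed groups. The block called 25.8%, 26.3% and 27.9% of all tested genes over untransformed cells in that order, against 23.4%, 24.4% and 25.3% without it. The libraries share only a replicate number: deviations of same-numbered libraries correlated at -0.168 to 0.282. Depth limits Egr2, with 4 to 39 counts a library, most.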
